A study of Mus musculus with 6 samples.

Results

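The 8 genes described here, Six4, Eya1, Eya4, Tbx15, Sox6, Prox1, Tead1 and Maf, encode transcription factors and coactivators that set the fiber type of skeletal muscle, and they were chosen by symbol from the 24411 genes of the count table. All 8 of 8 were listed and all 8 were among the 12828 genes tested. The RNA was from the soleus (Sol), of 3 mice in the WT group and 3 in the LSD1-mKO group, 1 library each. LSD1-mKO mice carry floxed Lsd1 alleles and a CreERT2 transgene (Cre joined to a domain of the estrogen receptor) under the human ACTA1 promoter, so that tamoxifen deletes Lsd1 in differentiating and mature muscle cells, and the other cells of the muscle keep the gene. WT mice of this colony carry the floxed alleles without CreERT2 and are also given tamoxifen. All mice were C57BL/6, had a wheel for voluntary running (VWR) over 38 days from 8 weeks of age, and received tamoxifen at 75 mg/kg on 5 days after 3 days of familiarization. Sedentary mice were not analysed here, so every value describes trained muscle. The question was whether the transcripts of these factors differed between the genotypes in trained Sol.

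Adult muscle mixes slow, oxidative type I fibers with faster type II fibers, and each type transcribes its own set of sarcomeric genes. Six4 binds DNA at MEF3 sites together with Eya coactivators and acts on fast fiber genes. Sox6 represses slow fiber genes, Prox1 favours the slow program, and Tbx15 is known from glycolytic fibers. Tead1 binds MCAT sites of muscle genes with Yap and Vgll cofactors, and large Maf proteins act on the genes of the fastest myosin. Sol is the classical slow muscle of the mouse hindlimb and holds mainly type I and IIA fibers.

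Levels are given as CPM, the estimated counts scaled by TMM to a common library total, which compare 1 gene between mice, or as TPM, which also divide by transcript length and so compare genes with each other. Groups are given as mean ± SD over 3 mice, and differences as the log2 fold change of LSD1-mKO over WT from edgeR's quasi-likelihood test with Benjamini-Hochberg adjustment over all genes tested. The libraries held 8940206 to 13798059 estimated counts, and only Esr1, higher in LSD1-mKO, and Kdm1a, lower, passed an adjusted p of 0.05 in edgeR. Esr1 encodes an estrogen receptor, and the CreERT2 transgene of the LSD1-mKO mice holds a domain of such a receptor. Whether the Esr1 reads came from the transgene or from the gene itself was not tested. Kdm1a, which encodes LSD1, was at 40.5, 38.2 and 33.6 CPM in WT replicates 1 to 3 and at 14.6, 16.6 and 16.6 CPM in LSD1-mKO replicates 1 to 3, in the direction of the labels (log2 fold change -1.23, SE 0.11, edgeR adjusted p 0.016). Its groups lay far apart, but the call was lost without WT replicate 2 or any 1 LSD1-mKO mouse (edgeR adjusted p 0.111 to 0.209). The 6 skeletal muscle markers Acta1, Ckm, Des, Ttn, Mb and Ryr1 summed to 67050 to 88100 CPM, and none was at 0. WT replicate 1 stood apart from the other WT mice in its low content of connective tissue and macrophage transcripts, and each factor is also given without it. Without it, the marker sums of both kinds were higher in each WT mouse than in each LSD1-mKO mouse. The sums of the lymphatic markers given below then had this order too. The 3 libraries of a group come from separate mice.

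With edgeR 0 of the 8 factors passed the adjusted threshold, against 0.0156% of all genes tested, and 0 of 8 passed it with DESeq2 or limma voom. Eya1 and Tead1 were the exceptions at the level of single mice, since the lowest LSD1-mKO value of both lay above the highest WT value. Thus 2 of 8 factors had groups that did not overlap, while this was so for 12.7% of all genes in either direction and for 6.63% of all genes with LSD1-mKO higher. The same 2 of 8 had an unadjusted p under 0.05 in edgeR, which 6.4% of all genes did. The fitted difference was positive for 4 factors and negative for 4, with a median log2 fold change of 0.01 beside -0.02 over all genes. The median size of the difference, regardless of sign, was 0.10 for the factors and 0.12 for all genes on the log2 scale.

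**Figure D1:**
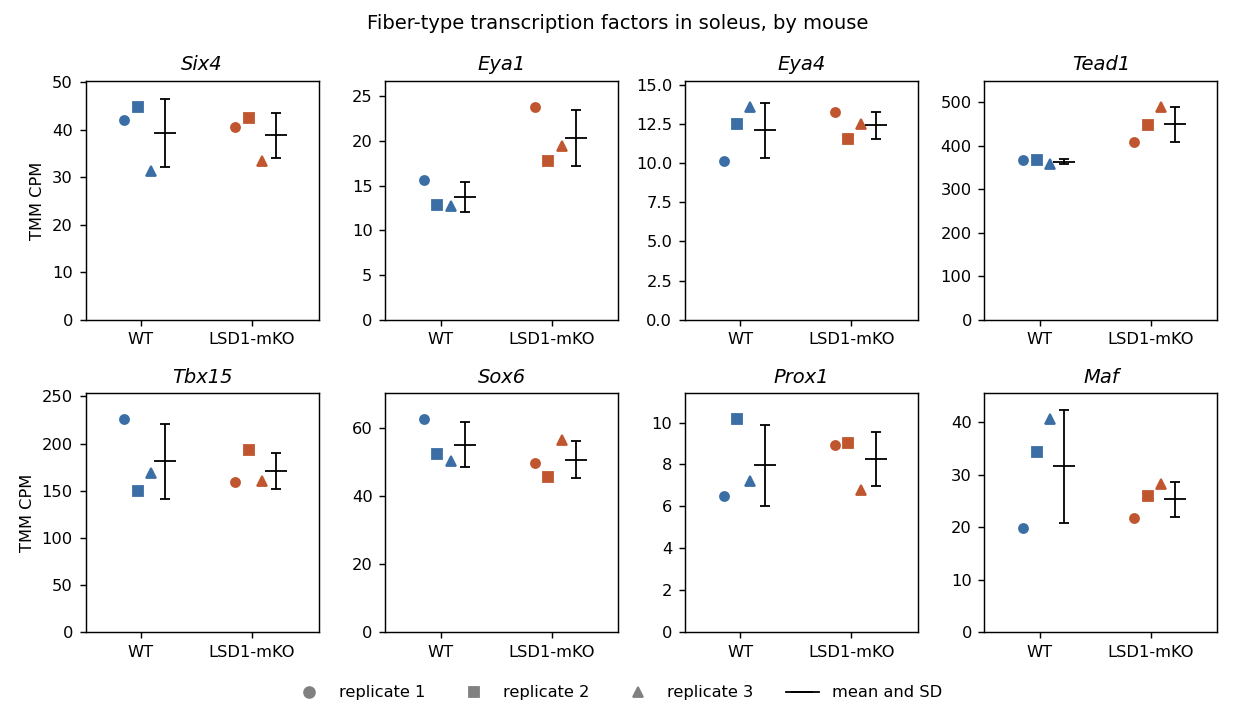
TMM-scaled CPM (y axis, from 0) of the 8 factors in the 3 WT and 3 LSD1-mKO mice; each symbol is a mouse and the black bars are mean and SD. For Eya1 and Tead1 all 3 LSD1-mKO mice lie above all 3 WT mice, and for the other 6 genes the groups overlap.

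Tbx15 and Tead1 were the most abundant of the factors per transcript length. Over the 6 mice Tbx15 stood at 109 ± 13.0 TPM (SD, n = 6) and Tead1 at 90.3 ± 12.3 TPM, and the ranges of the pair overlapped. The next factor in order was Sox6 at 13.5 ± 1.23 TPM, and in 6 of 6 mice it lay below Tead1. Six4 (12.7 ± 1.95 TPM), Maf (9.99 ± 3.09 TPM) and Eya1 (8.61 ± 2.07 TPM) came next, and in this stretch from Sox6 to Eya1 every factor overlapped in range with its neighbour. Eya4 at 5.13 ± 0.69 TPM and Prox1 at 2.28 ± 0.50 TPM were lowest, and each lay below the factor before it in 6 of 6 mice. The order depends on which transcript supplies the length: with the median instead of the longest coding transcript Tead1 came before Tbx15, and Eya1 moved from rank 6 to rank 4.

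Six4 encodes a homeodomain protein of muscle. The gene lies on the minus strand of chromosome 12 of GRCm38 from 73099609 to 73113456. Its CPM were 42.0, 44.8 and 31.3 in WT and 40.6, 42.3 and 33.3 in LSD1-mKO. The lowest mouse of each group was replicate 3, and the groups overlapped nearly throughout. Six4 did not pass the test (log2 fold change -0.02, 95% interval -0.37 to 0.33, edgeR adjusted p 0.984). Without WT replicate 1 the log2 fold change was 0.03. The Six4 promoter is shown because it holds the letters of the site that Six4 binds. RefSeq gives 2 start windows for Six4 (GRCm38.p6, 250 bases before to 50 after the start), and the downstream one holds a match to MEF3 (TCAGGTTTC, searched on both strands) whose first base is 99 bases before the start, within an exon of the longer GENCODE transcript. The match is in capitals and reads as the reverse complement of the motif in the direction of the gene.
Six4, chr12:73113325-73113354, minus strand: tggcctggggGAAACCTGAtcggccagatc
MEF3 was found in 0.429% of all 32851 start windows and in 0 of 17 windows of slow and 0 of 12 windows of fast fiber genes.

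Eya1 and Eya4 encode coactivators with phosphatase activity that work with Six4. Eya1 (chromosome 1, minus strand, 14168954 to 14310235) was at 15.7, 12.8 and 12.7 CPM in WT and at 23.8, 17.7 and 19.4 CPM in LSD1-mKO. The lowest LSD1-mKO mouse stood above the highest WT mouse, and LSD1-mKO replicate 1 was the highest of all. The log2 fold change was 0.57 (SE 0.15, 95% interval 0.23 to 0.91), a fold of 1.49. It did not pass the edgeR test across all genes (unadjusted p 0.00463, adjusted p 0.534), and the exact permutation test on CPM gave p = 0.1, the smallest that 3 against 3 mice allow. Leaving out 1 mouse at a time gave log2 fold changes of 0.44 (LSD1-mKO replicate 1 left out) up to 0.67 (WT replicate 1 left out), and over 14 alternatives the adjusted p ran from 0.177 to 0.998.

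Eya4 (chromosome 10, minus strand, 23102963 to 23350786) was at 10.1, 12.5 and 13.6 CPM in WT and 13.2, 11.5 and 12.5 CPM in LSD1-mKO. The 3 LSD1-mKO mice all fell within the range of WT, and Eya4 did not pass the test (log2 fold change 0.03, 95% interval -0.30 to 0.36, edgeR adjusted p 0.972). Without WT replicate 1 the log2 fold change was -0.07. Eya3 was at 11.4 ± 1.90 TPM in WT and 11.0 ± 0.74 TPM in LSD1-mKO. As a share of the summed EYA TPM, which was chosen as a measure after values had been seen, Eya1 took 29.6%, 23.0% and 23.7% in WT and 35.8%, 32.1% and 32.5% in LSD1-mKO. These shares did not overlap (25.4% ± 3.62 against 33.5% ± 2.07, exact permutation p 0.1, the smallest possible). The EYA sum itself overlapped between the groups, at 27.6 ± 2.75 TPM in WT and 30.6 ± 2.70 TPM in LSD1-mKO. The size of these shares and the order of the EYA genes depend on the transcript length. With the median instead of the longest coding transcript Eya1 took 46.9% ± 4.84 in WT and 56.6% ± 2.27 in LSD1-mKO, more than Eya3 at 26.3% ± 2.88 and 21.2% ± 2.53, and the shares of Eya1 again did not overlap. The EYA sum then did not overlap either, at 28.4 ± 1.77 TPM in WT and 34.5 ± 3.84 TPM in LSD1-mKO.

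The 6 relatives of Six4 and the Eya genes that were read were Six2, Six5, Eya2, Eya3, Dach1 and Dach2, of which 5 were tested and Six2 was too low. Among the 5, 0 had an adjusted or an unadjusted p under 0.05 in edgeR, 1 was higher and 4 were lower in the fit, and the median log2 fold change was -0.03. Eya3, a widely expressed EYA gene and the most abundant of the 6 per length, was at 26.3, 29.5 and 23.4 CPM in WT and at 25.4, 24.5 and 27.8 CPM in LSD1-mKO, so all LSD1-mKO values fell inside the WT range (log2 fold change -0.03, edgeR adjusted p 0.968).

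Tead1 encodes a TEA-domain factor that binds MCAT sites. The gene lies on the plus strand of chromosome 7 from 112679318 to 112906807. It was at 366, 367 and 357 CPM in WT and at 409, 448 and 490 CPM in LSD1-mKO. The WT mice lay close together, with a coefficient of variation of 1.55%, and every LSD1-mKO mouse was above them. The log2 fold change was 0.30 (SE 0.09, 95% interval 0.09 to 0.52), a fold of 1.23. It did not pass the edgeR test across all genes (unadjusted p 0.012, adjusted p 0.631), and the exact permutation p was 0.1, the smallest possible. Without LSD1-mKO replicate 3, the highest mouse, the log2 fold change was 0.24 with an unadjusted p of 0.0565 in edgeR. In that comparison 1 of the 8 factors, Eya1, stayed under 0.05, as did 494 of the 13062 genes tested. Without WT replicate 1 the log2 fold change of Tead1 was 0.31, and over 14 alternatives its adjusted p ran from 0.249 to 0.998.

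Tead1 supplied most of the TEAD transcripts of the muscle. Its share of the summed TPM of Tead1 to Tead4 was 83.6% ± 0.57 in WT and 85.0% ± 1.24 in LSD1-mKO (95.3% ± 0.06 and 95.9% ± 0.48 with the median transcript length). The TEAD sum was 89.5, 104.5 and 97.4 TPM in WT and 106.7, 118.0 and 125.9 TPM in LSD1-mKO, with the lowest LSD1-mKO mouse just above the highest WT mouse. Both the share and the sum were chosen after values had been seen, and both had groups that did not overlap (exact permutation p 0.1 for each). The shares came close, at 83.96% in WT replicate 2 and 84.24% in LSD1-mKO replicate 2. Because Tead1 makes up most of the sum, the sum largely repeats the values of Tead1.

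**Figure D2:**
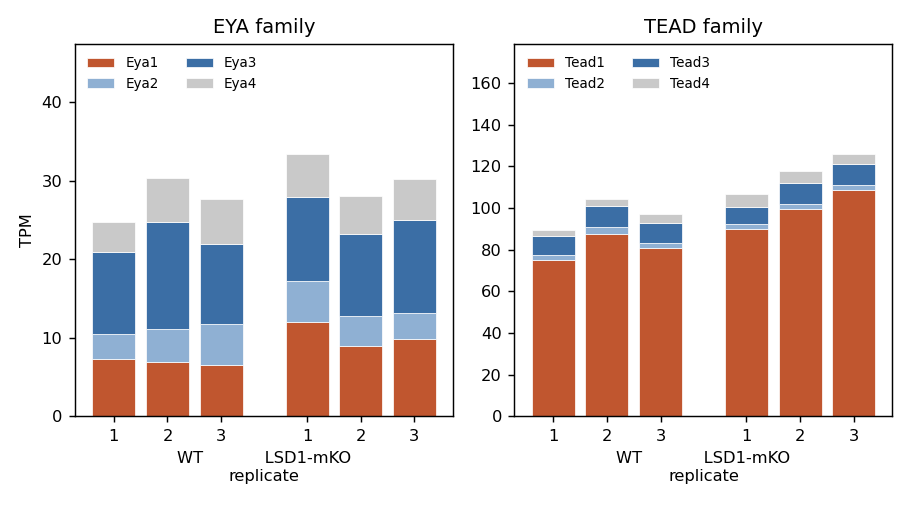
Stacked TPM (y axis, from 0) of the Eya (left) and Tead (right) genes in each WT and LSD1-mKO mouse. Tead1 fills most of each TEAD bar, at a mean of 83.6% in WT and 85.0% in LSD1-mKO, and the Eya1 segment makes up 25.4% and 33.5% of the EYA bars, with the longest coding transcript as length.

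Of the 10 TEAD and YAP relatives (Tead2, Tead3, Tead4, Yap1, Wwtr1, Vgll2, Vgll3, Vgll4, Lats1 and Lats2), 10 were tested and 0 had an adjusted p under 0.05 in edgeR. Groups did not overlap for 1 higher and 1 lower gene of the 10, and for 12.7% of all genes. At an unadjusted p under 0.05, 1 was higher and 0 were lower, with a median log2 fold change of -0.03 over the 10. The one was Tead4, a TEAD gene known from activated myoblasts, at 4.70, 4.77 and 5.86 CPM in WT and 8.73, 8.25 and 6.89 CPM in LSD1-mKO. These groups did not overlap either, and the log2 fold change was 0.64 (SE 0.18, edgeR unadjusted p 0.00669, adjusted p 0.578). Its transcript was far less abundant than that of Tead1, at 3.71 ± 0.59 TPM in WT and 5.71 ± 0.66 TPM in LSD1-mKO. Yap1, the coactivator of TEAD proteins, was at 98.4, 111 and 111 CPM in WT and 107, 112 and 111 CPM in LSD1-mKO (named after its values were seen). Vgll2, the muscle cofactor of TEAD proteins and the most abundant of the 10 per length, was at 285 CPM in WT replicate 1 against 143 and 117 in the other WT mice and 199, 177 and 190 in LSD1-mKO. The log2 fold change rests on single mice: it was 0.06 with all mice (edgeR adjusted p 0.976), 0.54 without WT replicate 1 (adjusted p 0.164, the lowest over 14 alternatives) and -0.18 without WT replicate 3.

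MCAT (CATTCC, both strands), the site bound by TEAD proteins, was looked for in the start windows of the slow and fast fiber genes. It was in 14.7% of all 32851 windows, in 3 of 17 windows of slow fiber genes and in 5 of 12 windows of fast fiber genes. It was also in 8 of 13 windows of the TEAD and YAP relatives and in 2 of 30 windows of the other regulators described below. The matches in the fiber genes are given in the direction of the gene with the match in capitals, because the levels of these sarcomeric genes can then be set beside those of Tead1. A match to these letters is a description of sequence and does not show binding.
Myh7, chr14:54994810-54994839, minus strand, upstream of every annotated transcript: ctagtgagccgtGGAATGttagagatattt
Myl3, chr9:110763489-110763518, plus strand, intron of a longer transcript: caggtgactgggGGAATGgagcacactccc
Myl3, chr9:110763517-110763546, plus strand, intron of a longer transcript: ccctcccccaccCATTCCtgggcttgaaca
Tnnc1, chr14:31208242-31208271, plus strand, upstream, overlapping Nisch: tgggctgggctgGGAATGtagcaggaggtg
Myl1, chr1:66945119-66945148, minus strand, exon of a longer transcript: atagtctgagccGGAATGccacccccctgg
Mybpc2, chr7:44524714-44524743, minus strand, upstream: gagcatgcaagaGGAATGcggggcggccct
Tpm1, chr9:67049252-67049281, minus strand, exon: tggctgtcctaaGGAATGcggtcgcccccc
Myh1, chr11:67200074-67200103, plus strand, exon: aaagtaccccttGGAATGagagtgacttgt
Myh4, chr11:67237569-67237598, plus strand, upstream, overlapping Myhas: accctggatctcCATTCCctatcagatgct
The fitted log2 fold changes of these 8 genes were -0.05 for Myh7, 0.04 for Myl3, 0.17 for Tnnc1, -0.04 for Myl1, 0.27 for Mybpc2, -0.11 for Tpm1, 0.18 for Myh1 and -0.36 for Myh4. All 8 had groups that overlapped, and the lowest edgeR adjusted p among them was 0.865. Of the 6 Sox6 windows 2 held MCAT, and the match at the start furthest upstream, 107 bases before it and outside every annotated transcript, is shown because both genes are among the 8 factors.
Sox6, chr7:116038834-116038863, minus strand: tcaggaacaaagGGAATGtggaaatgaaag
The RefSeq windows used here held no entry for Eya1, Tbx15, Tead1 and Maf.

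Tbx15 encodes a T-box factor. The gene lies on the plus strand of chromosome 3 from 99240381 to 99354259, 1.2 kb from Wars2 on the same strand. It was at 226, 150 and 169 CPM in WT and at 160, 193 and 160 CPM in LSD1-mKO. WT replicate 1 was the highest mouse and WT replicate 2 the lowest, so all LSD1-mKO values lay inside the WT range. The log2 fold change was -0.08 (SE 0.16, 95% interval -0.44 to 0.28, edgeR adjusted p 0.934) and turned to 0.11 without WT replicate 1 (adjusted p 0.704, with 0.704 to 1.000 over 14 alternatives).

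Sox6 encodes a SOXD repressor. It lies on the minus strand of chromosome 7 from 115470872 to 116038796, with its start 0.6 kb from that of 1110004F10Rik on the opposite strand. Its CPM were 62.7, 52.3 and 50.4 in WT and 49.9, 45.7 and 56.4 in LSD1-mKO. The groups overlapped, with the highest value in WT and the lowest in LSD1-mKO. Sox6 did not pass the test (log2 fold change -0.12, SE 0.12, 95% interval -0.39 to 0.15, edgeR adjusted p 0.871), and without WT replicate 1 the log2 fold change was -0.02. Its share of the summed TPM of Sox5, Sox6 and Sox13 was 54.3% ± 4.53 in WT and 54.7% ± 1.80 in LSD1-mKO.

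The SOX motif (AACAAT, both strands), which SOXD proteins can bind, was in 10.7% of all windows, in 5 of 17 windows of slow fiber genes, from 4 genes, and in 1 of 12 windows of fast fiber genes. The windows of the Myh7 starts overlap and hold the same matches, and each is counted among the 5. The upstream sequence of Myh7, the myosin heavy chain of slow fibers, is shown whole because it holds 2 SOX matches and the MCAT match within 250 bases. In it the first stretch of capitals is the MCAT match and the following ones are the SOX matches. These lie 124 and 104 bases before the Myh7 start furthest upstream, and 201 and 181 bases before the other RefSeq start. No MCAT match overlapped a SOX match in the fiber gene windows.
Myh7, chr14:54994627-54994876, minus strand: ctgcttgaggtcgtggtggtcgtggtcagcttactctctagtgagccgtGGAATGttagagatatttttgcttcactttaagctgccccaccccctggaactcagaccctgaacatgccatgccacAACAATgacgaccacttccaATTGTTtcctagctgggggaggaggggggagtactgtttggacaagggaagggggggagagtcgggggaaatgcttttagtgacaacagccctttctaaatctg
The other SOX matches were in Myl3, Csrp3 and Tpm3 of the slow genes and Myh2 of the fast genes, each shown with its match in capitals. The place named is that of the whole 30-base stretch. The Myh2 match itself lies upstream of the annotated gene start at 67171027, and only the end of its stretch reaches the exon.
Myl3, chr9:110763531-110763560, plus strand, intron of a longer transcript: ttcctgggcttgAACAATgccctctccagg
Csrp3, chr7:48848217-48848246, minus strand, upstream: aacccaactgatATTGTTctccgggaggct
Tpm3, chr3:90079370-90079399, plus strand, intron of a longer transcript: aatgggacagccATTGTTacgagacagcct
Myh2, chr11:67171005-67171034, plus strand, exon: agaggcagtcgcATTGTTtccatagctagc
Their log2 fold changes were -0.24 for Csrp3, 0.22 for Tpm3 and -0.25 for Myh2, and each had groups that overlapped. The T-box motif AGGTGTGA (1.28% of all windows) was in 0 of 17 slow and 0 of 12 fast fiber gene windows. The MAF motif TGCTGAC (4.67% of all windows) was in the windows of Myh7b and Atp2a1.

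Prox1 encodes a homeodomain factor that also marks lymphatic endothelium. It lies on the minus strand of chromosome 1 from 190118035 to 190170714. It was the lowest of the 8 factors, with 54 to 125 rounded counts per library, so its relative counting error was the largest. The CPM were 6.51, 10.2 and 7.20 in WT and 8.95, 9.05 and 6.80 in LSD1-mKO. All LSD1-mKO mice lay between the lowest and the highest WT mouse. The log2 fold change was 0.05 (SE 0.21, 95% interval -0.43 to 0.53, edgeR adjusted p 0.971), and it was -0.06 without WT replicate 1. The 6 lymphatic markers Lyve1, Flt4, Pdpn, Ccl21a, Mmrn1 and Reln summed to 55.6, 69.1 and 76.0 CPM in WT and to 61.8, 43.4 and 55.4 CPM in LSD1-mKO. All 6 were lower in LSD1-mKO in the fit, 2 of them at an unadjusted p under 0.05 in edgeR, and 0 at the adjusted threshold. Of all 12828 genes tested 7027 were lower in the fit, 369 of them at an unadjusted p under 0.05. Without WT replicate 1 the lymphatic sums were higher in each WT mouse than in each LSD1-mKO mouse. Genotype and the content of these markers then cannot be told apart. The part of the lymphatic markers in the level of Prox1 was not tested. In bulk tissue, fewer cells of a type and less RNA per cell cannot be told apart.

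Maf, also called c-Maf, encodes a large MAF factor. The gene lies on the minus strand of chromosome 8 from 115682942 to 115707794. Its level was 19.8, 34.3 and 40.6 CPM in WT and 21.7, 26.0 and 28.2 CPM in LSD1-mKO, which made it the factor with the widest range, 2.05-fold from the lowest to the highest of the 6 mice. WT replicate 1 was the lowest mouse of all and the other WT mice were the highest. With all mice the log2 fold change was -0.33 (SE 0.23, 95% interval -0.87 to 0.21, edgeR unadjusted p 0.195, adjusted p 0.812). Without WT replicate 1 it was -0.57 (SE 0.13, 95% interval -0.88 to -0.26), with an unadjusted p of 0.00312 and an adjusted p of 0.193. In that comparison 3 of the 8 factors, Eya1, Tead1 and Maf, had an unadjusted p under 0.05 in edgeR, and so did 14.4% of all genes. The remaining WT mice had macrophage marker sums of 191 and 175 CPM, against 130, 61.2 and 94.9 CPM in LSD1-mKO. Their fibroblast marker sums were also above every LSD1-mKO sum. Without WT replicate 1, genotype and the content of these markers therefore cannot be told apart. Without WT replicate 3 the log2 fold change of Maf was -0.11, and over 14 alternatives its adjusted p ran from 0.193 to 1.000.

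WT replicate 1, the lowest mouse for Maf, was also the lowest WT mouse for macrophage and fibroblast markers. The 6 macrophage markers Adgre1, Cd68, Csf1r, Mrc1, Cd163 and C1qa summed to 62.7, 191 and 175 CPM in WT and 130, 61.2 and 94.9 CPM in LSD1-mKO. The 6 fibroblast markers Pdgfra, Col1a1, Col3a1, Dcn, Lum and Dpt summed to 974, 2683 and 3137 CPM in WT and 2099, 1143 and 1245 CPM in LSD1-mKO. In both lists WT replicate 1 was far below the other WT mice, all 6 markers were lower in LSD1-mKO in the fit, and 0 passed an unadjusted p of 0.05. No marker of these lists was at 0 in any library. Among the LSD1-mKO mice the order differed: replicate 1 had the highest sum of both lists and the lowest Maf. Their part in the level of Maf was not tested. In the other lists WT replicate 1 was not as far below the other WT mice, but it was the lowest WT mouse for blood endothelial, lymphatic and adipocyte markers. The 6 blood endothelial markers summed to 471, 674 and 585 CPM in WT and 593, 486 and 494 CPM in LSD1-mKO. The ranges were 114 to 180 CPM for the 6 satellite cell markers, 516 to 614 CPM for the 6 adipocyte markers and 83.0 to 109 CPM for the 6 Schwann cell markers.

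**Figure D3:**
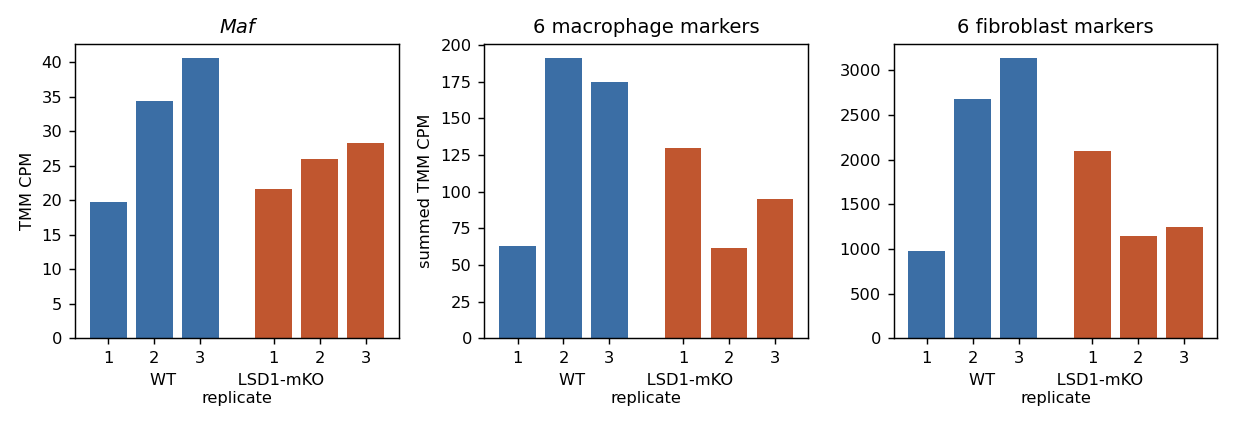
Maf (left), the summed macrophage markers (middle) and the summed fibroblast markers (right) in TMM-scaled CPM (y axes, from 0), 1 bar per mouse. WT replicate 1 is low in all 3 panels (19.8, 62.7 and 974 CPM), and LSD1-mKO replicate 1 is lowest of its group for Maf and highest for both marker sums.

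Of 9 MAF, SOX, T-box and PROX relatives (Mafa, Maff, Mafg, Mafk, Nrl, Sox5, Sox13, Tbx18 and Prox2), 8 were tested and Nrl was too low. In the fit 1 was higher and 7 were lower, and the median log2 fold change was -0.17, while 0 had an adjusted p under 0.05 in edgeR. Groups did not overlap for 1 higher and 2 lower genes of this list, and for 12.7% of all genes. Mafa, a large MAF gene, was the only one of the 8 with an unadjusted p under 0.05. It was at 3.86, 4.95 and 6.40 CPM in WT and at 8.58, 7.53 and 6.98 CPM in LSD1-mKO, without overlap (log2 fold change 0.59, SE 0.21, edgeR unadjusted p 0.022, adjusted p 0.701). Mafk, a small MAF gene with the highest TPM of the 9 by the longest transcript (Mafg was higher by the median length), was at 81.6, 52.2 and 56.7 CPM in WT and at 58.4, 56.2 and 56.6 CPM in LSD1-mKO. WT replicate 1 was its highest mouse, and the log2 fold change was -0.15 with all mice (edgeR adjusted p 0.880) and 0.07 without that mouse (adjusted p 0.744, the lowest with 1 mouse left out).

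**Figure D4:**
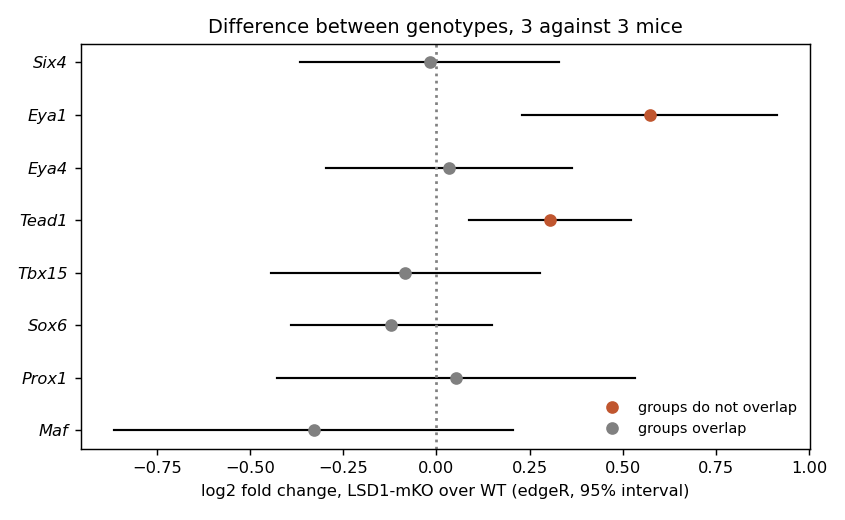
Log2 fold change of LSD1-mKO over WT (x axis) for the 8 factors, with the 95% interval from edgeR as a line. The intervals of Eya1 (0.23 to 0.91) and Tead1 (0.09 to 0.52) lie above 0, and those of the other 6 factors include 0.

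The 3 factors with the widest range over the mice were compared with all genes tested for the likeness of their profile, measured as the root mean square difference of centred log2 CPM over the 6 mice. This is a description with no test, and with 6 libraries many of the 12828 genes lie near any profile. For Maf the nearest were Fam180a (0.08 on the log2 scale), H2-K1 (0.09) and Epb4.1l3 (0.09). For Eya1 they were Ankrd33b (0.07), Gramd3 (0.08) and Egfl8 (0.08). For Prox1 they were Ifnar2 (0.05), Tspan15 (0.06) and Pik3c2b (0.06).

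The annotated neighbours were examined because reads of overlapping genes cannot be assigned without strand, and the strand setting of the counting was not given in the sources used here. Antisense or divergent transcripts overlap Tbx15, Sox6, Prox1, Tead1 and Maf in GENCODE vM21, among them Sox6os, Prox1os and 2310014F06Rik, and these had no row in the count table. Gm22616 on the opposite strand and Gm37444 on the same strand overlap Eya1, and Gm24655 overlaps Eya4, also without a row. Of the closest genes, 1110004F10Rik beside Sox6 was at 43.6, 47.8 and 49.6 CPM in WT and 47.9, 50.6 and 48.5 CPM in LSD1-mKO. Wars2 beside Tbx15 was at 9.28, 7.11 and 5.33 CPM in WT and 5.47, 5.57 and 6.05 CPM in LSD1-mKO, and Mnat1, 10.3 kb from Six4, at 33.4, 24.1 and 25.8 CPM in WT and 24.4, 25.4 and 25.1 CPM in LSD1-mKO. For these 3 neighbours the groups overlapped.

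Other regulators of fiber type were read from a list of 20 genes that covers NFAT and MEF2 factors, class II histone deacetylases, NFI factors, PGC-1 coactivators, estrogen-related receptors, Ppard, Tbx1, Mstn and Foxo1. All 20 were tested, 8 were higher and 12 lower in the fit, and 0 passed the adjusted threshold in edgeR. At an unadjusted p under 0.05, 2 were higher and 2 were lower, with a median log2 fold change of -0.03. At that level 452 of all 12828 genes tested were higher and 369 were lower. Esrrg, which encodes the nuclear receptor ERRγ of oxidative muscle, was at 147, 125 and 116 CPM in WT and 267, 208 and 282 CPM in LSD1-mKO (log2 fold change 0.96, SE 0.14, edgeR adjusted p 0.162). Its fitted difference was larger than that of each of the 8 factors, and it passed the threshold in DESeq2 (adjusted p 1.82e-06) and without the filter on low counts (edgeR adjusted p 0.0111), as none of the 8 did in any of the 14 alternatives. Hdac4, a deacetylase that links denervation to muscle genes, was at 28.0, 25.4 and 27.6 CPM in WT and 17.2, 24.5 and 20.6 CPM in LSD1-mKO (log2 fold change -0.38, edgeR adjusted p 0.701). Nfatc4, a calcineurin-regulated factor, was at 7.96, 10.3 and 8.17 CPM in WT and 7.18, 6.37 and 5.40 CPM in LSD1-mKO (log2 fold change -0.48, edgeR adjusted p 0.726). The remaining one, Nfatc3, was higher in LSD1-mKO with a log2 fold change of 0.26 (edgeR adjusted p 0.742, named after its values were seen). Mef2c, the most abundant of the 20 per length, was at 812, 707 and 742 CPM in WT and 752, 896 and 846 CPM in LSD1-mKO.

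The lists of slow and fast fiber genes were read last. All 13 slow fiber genes were tested, and 0 had an unadjusted p under 0.05 in edgeR, although 10 were higher in the fit, with a median log2 fold change of 0.15 beside -0.02 over all genes. Of all 12828 genes tested 5801 were higher in the fit. Myl3, the slow light chain with the highest TPM of the list by the longest transcript, was at 5436, 4218 and 4469 CPM in WT and 4982, 4847 and 4663 CPM in LSD1-mKO, within the WT range. Myh7 was higher by the median length, which is 414 bases for Myh7 against 6230 for its longest transcript. All 15 fast fiber genes were tested, 5 were higher and 10 lower in the fit, and the median log2 fold change was -0.10. Tnnt3, the fast troponin T with the highest TPM of the list, was at 11670, 8512 and 9605 CPM in WT and 11271, 9252 and 10604 CPM in LSD1-mKO.

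Actn3, the alpha-actinin of fast fibers, was the 1 fast gene with an unadjusted p under 0.05. It was at 91.9, 63.6 and 198 CPM in WT and at 497, 165 and 341 CPM in LSD1-mKO. The groups overlapped at LSD1-mKO replicate 2, and the log2 fold change was 1.50 (SE 0.48, edgeR unadjusted p 0.0128, adjusted p 0.636). As shares of the summed TPM of Myh7, Myh2, Myh1 and Myh4, the adult myosin heavy chains of type I, IIA, IIX and IIB fibers, Myh7 held 34.7% ± 2.51 in WT and 36.6% ± 6.91 in LSD1-mKO. Myh2 held 55.2% ± 2.25 and 50.7% ± 4.55, and Myh1 held 10.1% ± 2.39 and 12.7% ± 3.25. Myh4 made up 0.063% ± 0.024 in WT and 0.055% ± 0.012 in LSD1-mKO. For each of the 4 heavy chains the shares overlapped between the groups (exact permutation p 0.7, 0.2, 0.5 and 0.7 in the order given). These shares too depend on the transcript length. The coding transcripts of Myh7 have a median of 414 bases and a longest of 6230. The medians of Myh2, Myh1 and Myh4 are 6050.5, 5975 and 5964 bases. With the median length Myh7 held 88.7% ± 1.14 in WT and 89.3% ± 2.88 in LSD1-mKO, high shares that rest on its short median. The shares of all 4 still overlapped between the groups.

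**Figure D5:**
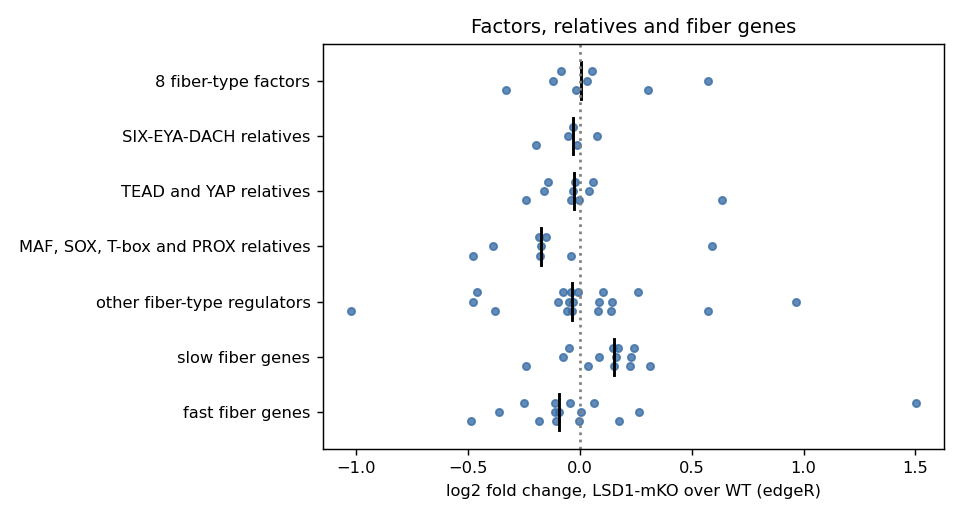
Log2 fold change of LSD1-mKO over WT (x axis) for each tested gene of the 8 factors, their relatives, other regulators and the slow and fast fiber genes; points are genes and black ticks are list medians. The medians run from -0.17 (MAF, SOX, T-box and PROX relatives) to 0.15 (slow fiber genes), and the point at 1.50 is Actn3.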

How the data were processed

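Polyadenylated RNA of Sol from 3 WT and 3 LSD1-mKO mice was sequenced as 75-base single-end reads. Per the labels, the submitters' processing notes name mm10, STAR and DESeq2, without versions. The tool that counted reads and its strand setting are not given in the sources used here. The authors deposited estimated counts per gene, not normalized, of which 8.33% to 9.94% of values in a library were not whole. A second deposited table holds the authors' own fold changes and p-values and was not used. The 8 genes and all lists were chosen with earlier results of these data known.

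Estimated counts were rounded and tested with edgeR 4.0.16 in R 4.3.3 (TMM, filterByExpr, quasi-likelihood test, Benjamini-Hochberg over 12828 genes, threshold 0.05, two-sided), after a check on simulated counts. Single values were compared by a two-sided exact permutation test over the 20 assignments of 6 mice, with a smallest p of 0.1. DESeq2 1.42.0 (the study's tool) and limma 3.58.1 (voom) were alternatives, beside other scalings and filters, the replicate block and each mouse left out. TPM used the longest coding transcript of GENCODE vM21 (GRCm38). Of 24409 symbols, 23350 matched directly, 669 by older symbols and 390 not, and at least 99.6% of counts had a length. Likeness used log2(CPM + 0.5). Library totals were 8940206 to 13798059, and 3 counts, used as a floor, correspond to 0.217 to 0.362 CPM, which covers counting error only.

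Genes were named by rule: the 8 factors, and from each list up to 3 genes with the smallest unadjusted p under 0.05 and the gene with the highest TPM. For the 3 factors with the widest range, the 3 most similar genes were named. Of the genes nearest to each factor only the 3 closest are given, beside Sox6, Tbx15 and Six4. Exceptions are marked in the text. Promoter windows are from RefSeq (GRCm38.p6), with entries for 4 of the 8 factors. Some genes of the lists are not reported here and were left out of the list counts and plots.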

Additional observations from a re-analysis of the deposited data

How the results depend on the processing

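The number of the 8 factors past the adjusted threshold was 0 under all 14 alternatives. Eya1, Tead1, Maf and Sox6 kept their direction in all 14. Leaving out 1 mouse at a time gave log2 fold changes of 0.44 to 0.67 for Eya1, 0.24 to 0.37 for Tead1, -0.57 to -0.11 for Maf, -0.20 to -0.02 for Sox6, -0.16 to 0.0898 for Six4, -0.0713 to 0.127 for Eya4, -0.20 to 0.11 for Tbx15 and -0.0621 to 0.27 for Prox1, and the last 4 changed sign in this way alone. So did Vgll2 (-0.18 to 0.54), Eya3 (-0.11 to 0.0629), Mafk (-0.27 to 0.0702), Myl3 (-0.0356 to 0.16) and Tnnt3 (-0.0355 to 0.20). The cause was not tested. Higher fits were 2 of 8 without LSD1-mKO replicate 1. Over all genes, 33 were higher and 9 lower with DESeq2, 2 higher with limma voom, and 8 higher and 3 lower without the filter on low counts. With 1 mouse left out, 1 to 2 were higher and 0 to 1 lower (0 lower without WT replicate 2 or any 1 LSD1-mKO mouse), and genes with an unadjusted p under 0.05 numbered 494 to 1885 (494 without LSD1-mKO replicate 3, 536 without WT replicate 3 and 1885 without WT replicate 1, against 821). Mice of the same replicate number did not deviate alike from their group means (correlations of deviations -0.36, -0.10 and -0.15). With 3 mice a group this cannot show whether the mice were paired. A fit with the replicate block left 0 genes lower, with Kdm1a at -1.23 (edgeR adjusted p 0.299), and 0 factors called. With 1 mouse left out Kdm1a had log2 fold changes of -1.30 to -1.17 and edgeR adjusted p of 0.0334 to 0.209, over 0.05 without WT replicate 2 (0.116) or LSD1-mKO replicate 1 (0.111), 2 (0.143) or 3 (0.209). With the median transcript length the mean TPM became 460.7 for Tead1, 380.3 for Tbx15, 18.6 for Sox6, 16.4 for Eya1, 8.37 for Six4 and 3.51 for Prox1. With 3 mice a group the 95% intervals of the 6 factors whose groups overlapped ran from as low as -0.87 (Maf) to as high as 0.53 (Prox1) on the log2 scale. The family shares with the median transcript length were added after seeing the data.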
